A study of Mus musculus with 16 samples.

Results

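The interaction of the Dp16 duplication with the 5xFAD transgenes was examined in mouse cortex as a difference of differences on the log2 scale: the change from 5xFAD to 5xFAD-Dp16 minus the change from Wild-type to Dp16. The same number is the amyloid response on the Dp16 background minus the amyloid response with 2 copies of the segment, so a value below 0 means a smaller rise, or a larger drop, with the duplication present. It was computed for every gene that passed a filter on low counts, 17019 of the 55385 genes counted, and it uses all 16 libraries of the series. The question it addresses is where the duplication changes the response to the amyloid transgenes.

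Polyadenylated RNA was sequenced from brain cortex of mice aged 5 months, with 1 library per animal and 4 animals per genotype. Wild-type animals were labelled C57BL/6J, and the labels give the other groups by genotype alone. Dp16 animals carry an extra copy of a chromosome 16 segment that matches a large part of human chromosome 21. 5xFAD animals carry human transgenes with familial Alzheimer's disease mutations, mutant APP among them, under the neuronal Thy1 promoter, and 5xFAD-Dp16 animals carry both. The Wild-type, Dp16 and 5xFAD groups each held 2 females and 2 males, whereas all 4 animals of the 5xFAD-Dp16 group were male. A sex effect that occurs only in animals with the transgenes therefore cannot be told apart from the interaction by the additive sex term. Values below called those of the males come from a fit of the males alone, and they are given for the genes and lists where they were computed.

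In 5xFAD cortex, secreted amyloid peptide gathers in plaques, and microglia around them take on a plaque-associated state in which the receptor Trem2, signalling through its adaptor Tyrobp, raises genes of phagocytosis and lipid handling. Astrocytes respond in parallel with their intermediate filament Gfap. The Dp16 segment holds App itself and the genes of several interferon receptor chains, and interferon signalling is a known feature of trisomy 21.

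Library totals ran from 12483286 to 20385010 counted reads, and values per animal below are CPM, read counts relative to the TMM-corrected size of the library, on the usual CPM scale. Xist and Ddx3y matched the labelled sex in all 16 animals. Thy1, whose promoter drives the transgenes, stood at 809 to 946 CPM in the 8 animals without them and at 1450 to 1880 in the 8 with them, and counts per gene do not show which of these reads came from the transgenes. Wild-type replicate 2 and 5xFAD replicate 3 had the lowest median correlations with the other libraries, 0.939 and 0.938. Libraries also differed in how expression, centred per gene, ranked with gene length. All 4 5xFAD-Dp16 libraries had a positive rank correlation (0.102 to 0.451), and the most negative one, -0.462, belonged to 5xFAD replicate 3. Choroid plexus and ependyma markers summed to as much as 732 CPM in 5xFAD-Dp16 and 132 in Dp16, and to at most 46.0 in Wild-type and 37.3 in 5xFAD. The first 2 maxima came from single libraries, 5xFAD-Dp16 replicate 2 and Dp16 replicate 3. Over the markers that passed the filter, the other libraries of these groups stood at 25.9 to 41.9 and at 31.7 to 47.9 CPM.

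No gene passed the test of the interaction. With edgeR (quasi-likelihood test, p-values adjusted by Benjamini and Hochberg's method over 17019 genes), 0 genes (0%) were called at an adjusted p of at most 0.05. The smallest adjusted p was 0.203, for Cd86, the next was 0.235, for Clec7a, and for every other gene named below the edgeR adjusted p of the interaction was 0.522 or above. At an unadjusted p under 0.05 there were 779 genes above 0 (4.58% of those tested) and 812 below 0 (4.77%), 1591 in all. These shares are the background for the counts by gene list that follow. Between 5xFAD and 5xFAD-Dp16 directly, 4049 of 17019 genes had an unadjusted p under 0.05 and 0 were called by edgeR. Statements below that these 2 groups did not overlap stand against that background. The share of all genes without overlap was not counted, for these or for any other pair of groups. Genes named for a small interaction p were picked by the same values. For them a lack of overlap between any groups is a description. In the interaction 0 genes were called by limma-voom and 21 by DESeq2, 9 above 0 and 12 below. Among the genes described below, DESeq2 gave its smallest adjusted p below 0 to Cd86 (4.27e-05) and Clec7a (4.73e-05), and above 0 to Dusp1 (0.00699). The median interaction over all genes was -0.01 and the median half-width of its 95% interval was 0.753 on the log2 scale. For a typical gene, an estimate smaller than that half-width thus did not reach an unadjusted p under 0.05. With single libraries left out, the number of genes at an unadjusted p under 0.05 ran from 717, without 5xFAD replicate 3, to 3962, without Wild-type replicate 2. The p-values set a difference against the spread between these animals.

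The genes with the clearest amyloid response had smaller fold changes on the Dp16 background. Averaged over both backgrounds, 32 genes (0.188%) were called by edgeR, 26 raised and 6 lowered. The 26 raised genes had a median log2 change of 1.59 from Wild-type to 5xFAD and of 0.59 from Dp16 to 5xFAD-Dp16. Their interaction was below 0 for 21 of 26, with a median of -0.76 against -0.01 over all genes, and 14 of 26 (53.8%) had an unadjusted p under 0.05 below 0. In the males alone the median interaction of these genes was -0.475. The 26 were chosen by the averaged response, to which both backgrounds contribute, so these values are a description. Tested separately, 30 genes (0.176%) were called between Wild-type and 5xFAD, and 3 genes (0.0176%) between Dp16 and 5xFAD-Dp16. Those 3 were Clec7a, Cst7 and Thy1. The difference in these 2 counts was not itself tested, and it changed with the fit. In the males alone the counts were 3 and 3, and with a sex effect allowed to differ with the transgenes they were 24 and 7. The males-only fit holds fewer animals, so a difference between the sexes and a loss of precision cannot be told apart in its counts. DESeq2 called 234 and 25, the replicate block left 20 and 2, and without the filter on low counts they were 235 and 45. With single libraries left out the first count ran from 16, without Wild-type replicate 3 or 4, to 32, and the second from 2 to 5. The first count was also 17, 19 and 18 without 5xFAD replicates 1, 2 and 3 in turn.

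**Figure D1:**
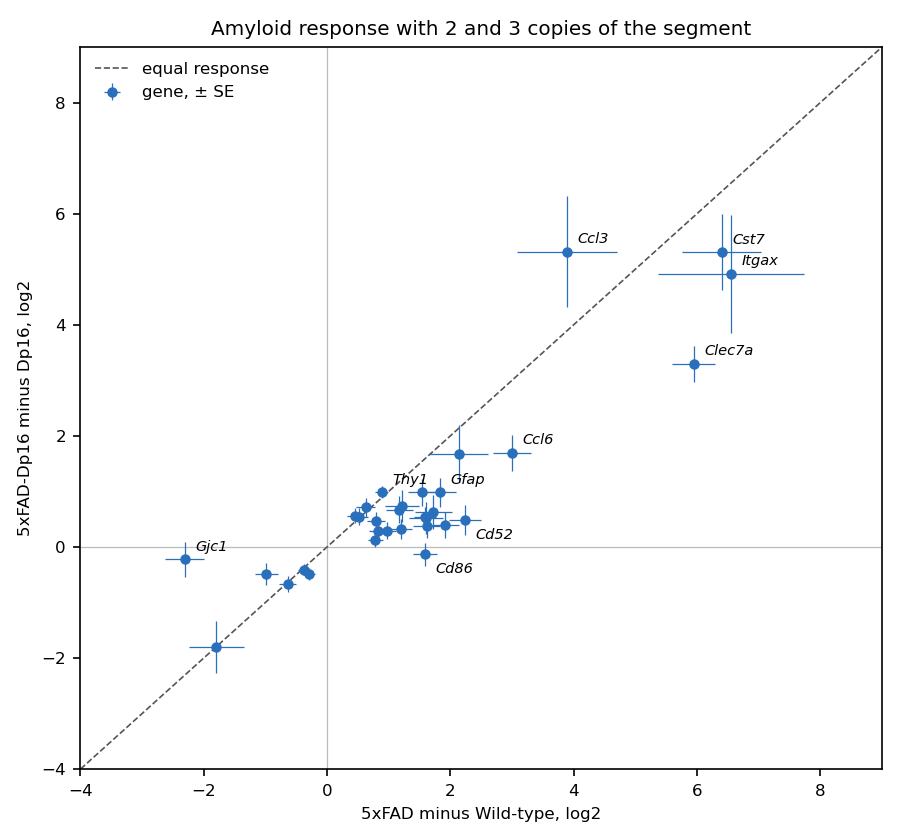
Log2 change from Wild-type to 5xFAD (x axis) and from Dp16 to 5xFAD-Dp16 (y axis) for the 32 genes called in the averaged amyloid response. Points are genes, bars are standard errors and the dashed line marks equal responses. Clec7a, Cd52, Cd86 and Ccl6 lie below the line, Thy1 lies on it within its error, and Gjc1, which was lowered, lies above it.

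Clec7a, a pattern-recognition receptor and a defining gene of plaque-associated microglia, had the largest difference among the amyloid-raised genes. It stood at 0.952, 0.743, 0.182 and 0.421 CPM in the Wild-type animals and at 1.63, 1.65, 1.01 and 1.48 in Dp16. With the transgenes it stood at 47.4, 44.5, 32.3 and 21.0 CPM in 5xFAD, the first pair being the females, and at 12.1, 12.4, 13.7 and 9.91 in 5xFAD-Dp16. All 4 5xFAD animals were above all 4 5xFAD-Dp16 animals, the males included, and all Dp16 animals were above all Wild-type animals. The response was 61.6-fold with 2 copies of the segment (log2 5.94, edgeR adjusted p = 7.04e-08) and 9.82-fold on the Dp16 background (log2 3.30, edgeR adjusted p = 0.00023). Part of the difference between these folds came from the animals without transgenes, at 0.182 to 0.952 CPM in Wild-type and 1.01 to 1.65 in Dp16. Both folds thus rest on low levels. The interaction of Clec7a was -2.65 (SE 0.465, 95% interval -3.63 to -1.67, edgeR adjusted p = 0.235). In the males alone it was -2.34, and with single libraries left out it ran from -3.09 to -2.35. Without Wild-type replicate 1 Clec7a passed, as the only gene, at an edgeR adjusted p of 0.0228. The gene (ENSMUSG00000079293.11) lies on chromosome 6 from 129461591 to 129472779, minus strand, in GRCm38.

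Cd86, the costimulatory ligand of CD28 on antigen-presenting cells, had the smallest interaction p of all genes. It stood at 5.00, 3.39, 3.57 and 4.36 CPM in Wild-type and at 5.96, 9.30, 7.49 and 7.47 in Dp16. In 5xFAD it stood at 12.5, 13.6, 11.2 and 12 CPM, and in 5xFAD-Dp16 at 6.55, 7.59, 6.27 and 7.93. The animals with both alterations were thus within the range of Dp16 without the transgenes, and below every 5xFAD animal of either sex. All Dp16 animals were also above all Wild-type animals, so part of the interaction of Cd86 lay in the animals without transgenes. Cd86 rose 3.01-fold from Wild-type to 5xFAD (edgeR adjusted p = 0.000693), while the ratio of 5xFAD-Dp16 to Dp16 was 0.910 (edgeR adjusted p = 0.855). The interaction was -1.73 (SE 0.282, 95% interval -2.32 to -1.13, edgeR adjusted p = 0.203), and it was -1.66 in the males alone. Cd86 (ENSMUSG00000022901.13) is on chromosome 16 from 36603869 to 36666081, minus strand, outside the duplicated segment.

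Among the microglial receptors and signalling chains named here, Fcgr3, Fcer1g, Trem2 and Tyrobp were also highest in 5xFAD. Fcgr3, the low-affinity activating receptor for immunoglobulin G, stood at 106, 115, 104 and 71.5 CPM in 5xFAD and at 39.4, 48.6, 46.6 and 49.2 in 5xFAD-Dp16, against 32.4 to 53.9 in Wild-type and 44.3 to 51.4 in Dp16. The 5xFAD-Dp16 animals were at the level of the animals without transgenes. The interaction of Fcgr3 was -1.19 (SE 0.243) and -0.839 in the males. Its signalling chain Fcer1g stood at 27.0 to 34.3 CPM in 5xFAD and 17.7 to 22.5 in 5xFAD-Dp16, with an interaction of -0.88 and -1.04 in the males.

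Trem2, the lipid-sensing receptor, stood at 89.9, 92.7, 73.7 and 55.5 CPM in 5xFAD and at 36.3, 43.0, 36.0 and 35.8 in 5xFAD-Dp16, against 18.7 to 30 in Wild-type and 25.1 to 32.9 in Dp16. Its adaptor Tyrobp stood at 137, 148, 137 and 77.3 CPM in 5xFAD and at 48.1, 46.8, 50.5 and 50.6 in 5xFAD-Dp16. In both genes the 5xFAD animals were above the 5xFAD-Dp16 animals without overlap. The response of Trem2 was 3.00-fold with 2 copies and 1.45-fold on the Dp16 background, an interaction of -1.05 (SE 0.254, 95% interval -1.59 to -0.51). Among males it was -0.713 for Trem2 and -0.879 for Tyrobp, whose main value was -1.24. Another fit removed each library's trend with gene length. There Trem2, Tyrobp, Fcgr3 and Fcer1g gave -0.782, -0.847, -0.955 and -0.53, and Clec7a and Cd86 gave -2.55 and -1.69. With the length trend removed in males only, Trem2, Tyrobp, Fcgr3 and Fcer1g gave -0.398, -0.395, -0.563 and -0.645. Clec7a and Cd86 gave -2.28 and -1.65 in that fit.

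Promoters of Clec7a, Trem2 and Fcgr3 are shown as those of 5 microglial genes with an entry that hold the motif searched. The windows of Fcer1g and Lyz2, looked up in the same way and also with their highest means in 5xFAD, held 0 matches. The runs are the 250 bases before the RefSeq start site in GRCm38.p6, written 5′ to 3′ on the gene's strand. Capitals mark GAGGAA, the core bound by the myeloid factor PU.1, and TGACG, the half-site of the cAMP response element, on either strand (TTCCTC and CGTCA on the other). Clec7a is at chr6:129472780-129473029, minus strand, Trem2 at chr17:48346151-48346400, plus strand and Fcgr3 at chr1:171059404-171059653, minus strand.
Clec7a: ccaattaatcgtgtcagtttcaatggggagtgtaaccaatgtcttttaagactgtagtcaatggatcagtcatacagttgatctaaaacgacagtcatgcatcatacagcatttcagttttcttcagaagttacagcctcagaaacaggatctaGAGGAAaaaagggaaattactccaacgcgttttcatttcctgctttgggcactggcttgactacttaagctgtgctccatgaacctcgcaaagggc
Trem2: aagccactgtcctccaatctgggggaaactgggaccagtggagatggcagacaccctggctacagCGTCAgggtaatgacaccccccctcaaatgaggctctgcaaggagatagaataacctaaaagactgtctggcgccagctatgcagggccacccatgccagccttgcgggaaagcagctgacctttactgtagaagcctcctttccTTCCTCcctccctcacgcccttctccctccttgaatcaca
Fcgr3: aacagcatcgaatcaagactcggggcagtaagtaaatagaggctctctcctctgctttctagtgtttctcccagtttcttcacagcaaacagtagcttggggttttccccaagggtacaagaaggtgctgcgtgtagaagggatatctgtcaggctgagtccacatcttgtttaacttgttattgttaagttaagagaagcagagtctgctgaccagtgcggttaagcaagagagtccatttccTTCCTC
GAGGAA was thus found once in 3 of 5 windows, and 23.1% of the 27025 promoters of the same length held at least 1. Trem2 also held 1 TGACG match. The 8-letter version GAGGAAGT, found in 2.43% of promoters, was not in these windows. A match is a description of the letters and was not tested as a binding site.

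Secreted and effector products of microglia followed. Lyz2, the macrophage lysozyme, stood at 110, 117, 106 and 62.7 CPM in 5xFAD and at 33.4, 55.3, 42.8 and 42.8 in 5xFAD-Dp16, against 17.2 to 36.4 in Wild-type and 31.7 to 37.8 in Dp16. Its interaction was -1.53 (SE 0.320), and it was -1.44 in the males. Cd52, a small surface glycoprotein of leukocytes, stood at 17.2, 11.7, 11.6 and 8.04 CPM in 5xFAD and at 6.31, 6.15, 7.36 and 6.88 in 5xFAD-Dp16, with an interaction of -1.75 (SE 0.373) and -1.16 in the males. Part of the Cd52 value came from the animals without transgenes, where Dp16 stood at 4.45 to 6.53 CPM and Wild-type at 1.79 to 3.45. The chemokine Ccl6 stood at 23.8 to 44.9 CPM in 5xFAD and 8.26 to 13.6 in 5xFAD-Dp16, an interaction of -1.31 that was -0.409 in the males and -0.858 without Wild-type replicate 4. With the length trend removed Lyz2, Cd52 and Ccl6 gave -1.33, -1.3 and -1.07. With that in males only they gave -1.16, -0.693 and -0.158.

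Cst7, which encodes cystatin F, an inhibitor of cysteine proteases, depended on the scale. It stood at 57.0, 53.2, 30.8 and 21.0 CPM in 5xFAD and at 15, 15.1, 13 and 7.87 in 5xFAD-Dp16, while the animals without transgenes ranged from 0 to 1.33. All 5xFAD animals were above all 5xFAD-Dp16 animals. As a difference of mean CPM, taken without a sex term, the interaction was -27.8 (SE 8.87). The 5xFAD females, at 57.0 and 53.2 CPM, stood above the 5xFAD males, at 30.8 and 21.0. With 5xFAD-Dp16 all male, a difference between the sexes therefore enters the value on the CPM scale. As a log2 difference it was -1.09 (SE 1.01, 95% interval -3.24 to 1.05), and in the males alone it reversed to 0.771. Without Wild-type replicates 2, 3 and 4 in turn it was -0.513, -2.84 and -0.658. The log2 values of Cst7 rest on levels near 0 without the transgenes and are no bound.

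**Figure D2:**
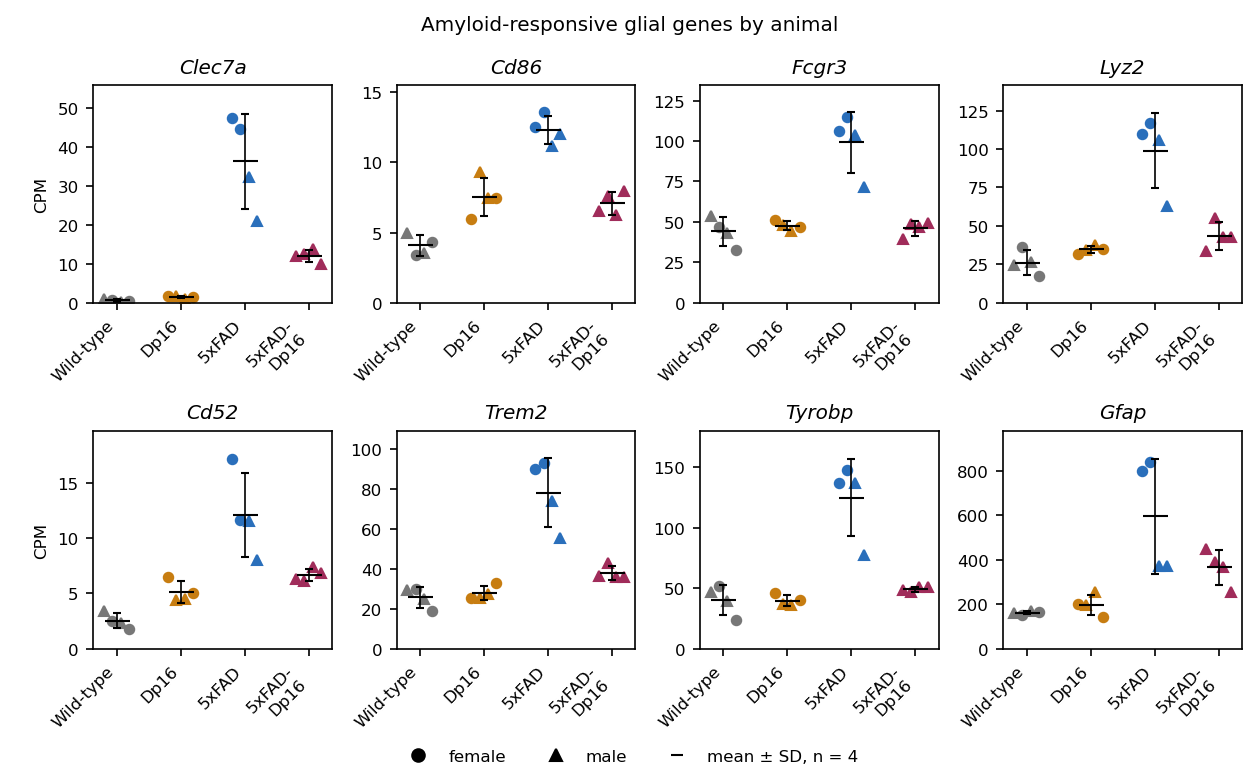
CPM of 7 microglial genes and of the astrocyte gene Gfap in each animal of the 4 genotypes. Circles are females, triangles are males and bars are the mean ± SD of 4 animals. For Clec7a, Cd86, Fcgr3, Lyz2, Cd52, Trem2 and Tyrobp every 5xFAD animal lies above every 5xFAD-Dp16 animal, and for Gfap the 5xFAD males overlap with 5xFAD-Dp16.

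Described as a list, 34 genes of plaque-associated microglia had 33 members that passed the filter, of which 24 were below 0 and 9 above, with a median interaction of -0.52 against -0.01 over all genes. At an unadjusted p under 0.05, 9 of 33 (27.3%) were below 0 and 0 above. The median change was 0.79 from Wild-type to 5xFAD and 0.38 from Dp16 to 5xFAD-Dp16. The list's score, the mean log2 CPM of its members minus the Wild-type mean, was 1.70 and 1.605 in the 5xFAD females, 1.11 and 1.015 in the 5xFAD males and 0.805 to 1.02 in the 4 5xFAD-Dp16 males. By this score the lower 5xFAD male lay within the range of 5xFAD-Dp16, and both females lay above it. Dp16 animals scored 0.209 to 0.324 and Wild-type animals -0.0761 to 0.0549. In the males alone the list's median interaction was -0.175, with 6 members below 0 at an unadjusted p under 0.05. In bulk tissue, fewer cells of a type and less RNA per cell cannot be told apart.

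General myeloid genes, a separate list of 30 that all passed the filter, had a median of -0.42 with 8 members (26.7%) below 0 at an unadjusted p under 0.05, and -0.171 in the males. By score, the 5xFAD females stood at 1.316 and 1.146, the 5xFAD males at 0.366 and 0.501, and 5xFAD-Dp16 at 0.399 to 0.677. Neither 5xFAD male was thus above the range of the all-male 5xFAD-Dp16 group. The median of general myeloid genes was -0.0902 without Dp16 replicate 3, -0.20 without Wild-type replicate 2 and -0.0358 with a sex effect differing with the transgenes. The 18 complement genes that passed, of 21 listed, had a median of -0.31, and -0.19 in the males. The complement score was 0.992 and 0.945 in the 5xFAD females and 0.177 and 0.198 in the 5xFAD males. Both 5xFAD males lay within the range of 5xFAD-Dp16, 0.102 to 0.472. The sign of the complement median was not stable: it turned to 0.0576 without Dp16 replicate 3 and to 0.0317 with the differing sex effect, and it was -0.186 and -0.491 without Wild-type replicates 2 and 4. The C1q chains, which start the classical pathway, accounted for all 3 members below 0 at an unadjusted p under 0.05. C1qb stood at 175, 193, 140 and 123 CPM in 5xFAD, the females first, and at 99.4, 113, 114 and 96.0 in 5xFAD-Dp16, an interaction of -0.67. C1qa and C1qc gave -0.56 and -0.64. In the males C1qa, C1qb and C1qc gave -0.231, -0.472 and -0.292, and for C1qa and C1qc a 5xFAD male lay within the range of 5xFAD-Dp16. With the length trend removed C1qa, C1qb and C1qc gave -0.263, -0.39 and -0.353. With that in males only they gave 0.0929, -0.161 and 0.0145.

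Homeostatic microglial genes were split in direction. Of 24 members, 13 were above 0 and 11 below, with a median of 0.08, and 4 (16.7%) were below 0 and 1 (4.17%) above at an unadjusted p under 0.05. The member above 0 was Egr1, which is also an immediate early gene. The purinergic receptor P2ry12, chosen after its values were seen, had an interaction of -0.40 (SE 0.176), and -0.175 in the males. In the males the median of homeostatic microglia was 0.334, and with single libraries left out it ran from -0.0808 to 0.247, so its sign was not stable. Lysosomal genes had a median of -0.02 over 39 members, with 7 (17.9%) below 0 at an unadjusted p under 0.05, among them the cholesterol carrier Npc2 (-0.67, and -0.516 in the males).

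Gfap, the astrocyte filament, differed by sex within 5xFAD. It stood at 802 and 840 CPM in the 5xFAD females and at 373 and 370 in the 5xFAD males, against 449, 391, 366 and 256 in the 5xFAD-Dp16 males and 143 to 253 in the 8 animals without transgenes. The males of both transgenic groups overlapped. The main interaction of Gfap was -0.85 (SE 0.372), and in the males it was -0.441. The 18 reactive astrocyte genes that passed, of 22, had a median of 0.09 with 10 above 0 and 8 below, and -0.296 to 0.406 with single libraries left out.

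Interferon-stimulated genes, none of whose tested members lies in the duplicated segment, had a positive median in each single alteration, and a smaller amyloid response on the Dp16 background. Their median change was 0.50 from Wild-type to 5xFAD, 0.30 from Wild-type to Dp16 and 0.12 from Dp16 to 5xFAD-Dp16. By score, the 5xFAD females stood at 0.877 and 0.586 and the 5xFAD males at 0.316 and 0.403. The range of 5xFAD-Dp16, 0.0472 to 0.530, held both 5xFAD males and neither female. Of 44 members that passed, of 52 listed, 37 were below 0 and 7 above in the interaction, with a median of -0.35 and 6 (13.6%) below 0 at an unadjusted p under 0.05. The median was -0.284 in the males and ran from -0.516 to -0.293 with single libraries left out. Slfn2, a schlafen family gene of lymphoid and myeloid cells, gave the clearest example. It stood at 3.10, 4.29, 4.30 and 3.42 CPM in Wild-type, at 7.38, 7.07, 7.14 and 6.28 in Dp16, at 6.72, 7.20, 6.27 and 7.03 in 5xFAD and at 3.59, 6.54, 4.60 and 4.24 in 5xFAD-Dp16. Both single groups were above Wild-type without overlap, and 3 of 4 5xFAD-Dp16 animals were below both. The interaction of Slfn2 was -1.40 (SE 0.314, 95% interval -2.06 to -0.74). Ifi27l2a, another interferon-induced gene, averaged 0.901 CPM in Wild-type, 3.12 in Dp16, 5.14 in 5xFAD and 2.80 in 5xFAD-Dp16, with an interaction of -2.59 and -3.16 in the males. The immunoproteasome subunit Psmb9, from the antigen presentation list, averaged 2.50, 4.26, 4.94 and 2.75 CPM in the same order of groups, with an interaction of -1.59 and -1.27 in the males. The antigen presentation list as a whole did not share this pattern. Its mean score was 0.326 in Dp16, 0.333 in 5xFAD and 0.334 in 5xFAD-Dp16. Its median interaction was -0.16, with 2 of 21 (9.52%) below 0 at an unadjusted p under 0.05. That median ran from -0.326 to 0.0111 with single libraries left out, so its sign was not stable.

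Immediate early genes, which are transcribed within minutes of neuronal activity or other stimulation, gave the opposite sign. The leading members had lower means in each single alteration than in Wild-type or with both. Dusp1, a phosphatase that switches off MAP kinases, stood at 65.8, 51.3, 70.3 and 63.7 CPM in Wild-type and at 39.6, 35.5, 41.4 and 34.5 in Dp16. It stood at 41.2, 42.5, 49.9 and 41.6 CPM in 5xFAD and at 71.1, 46.4, 54.2 and 52.5 in 5xFAD-Dp16. Neither single group overlapped with Wild-type, whereas 3 of 4 5xFAD-Dp16 animals were above the lowest Wild-type animal. The interaction of Dusp1 was 1.02 (SE 0.204, 95% interval 0.59 to 1.45), and in the males it was 1.14.

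Fos, a subunit of the AP-1 transcription factor, stood at 32.3, 19.0, 28.3 and 34.8 CPM in Wild-type, at 18.4, 20.9, 19.1 and 11 in Dp16, at 20.8, 20.6, 16.6 and 18.0 in 5xFAD and at 44.8, 25.5, 31.6 and 29.0 in 5xFAD-Dp16. All animals with both alterations were above all animals with either one alone, which describes values that the interaction itself uses. The amyloid response of Fos was 0.667-fold with 2 copies and 1.82-fold on the Dp16 background, an interaction of 1.45 (SE 0.331, 95% interval 0.75 to 2.15). The orphan nuclear receptor Nr4a1 gave 1.63 (SE 0.389), Ier2 1.40 (SE 0.331) and Junb, another AP-1 subunit, 1.16 (SE 0.286). Nr4a1 averaged 85.5 CPM in Wild-type, 48.8 in Dp16, 54.8 in 5xFAD and 95.8 in 5xFAD-Dp16. In the males the interaction was 1.53 for Fos, 1.80 for Nr4a1, 1.65 for Ier2 and 1.31 for Junb.

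The promoters of 3 of these genes, all with lower means in both single alterations than in the other 2 groups, are shown. Junb had the same pattern of means and an entry, but its promoter is not shown. The 3 promoters are written as above, with TGACG and GAGGAA in capitals on either strand. Dusp1 is at chr17:26508473-26508722, minus strand, Fos at chr12:85473640-85473889, plus strand and Nr4a1 at chr15:101266596-101266845, plus strand.
Dusp1: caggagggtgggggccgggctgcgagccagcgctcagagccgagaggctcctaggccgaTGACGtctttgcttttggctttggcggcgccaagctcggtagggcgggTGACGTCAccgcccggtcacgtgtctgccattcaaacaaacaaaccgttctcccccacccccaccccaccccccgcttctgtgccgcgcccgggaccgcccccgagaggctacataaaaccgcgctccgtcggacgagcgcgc
Fos: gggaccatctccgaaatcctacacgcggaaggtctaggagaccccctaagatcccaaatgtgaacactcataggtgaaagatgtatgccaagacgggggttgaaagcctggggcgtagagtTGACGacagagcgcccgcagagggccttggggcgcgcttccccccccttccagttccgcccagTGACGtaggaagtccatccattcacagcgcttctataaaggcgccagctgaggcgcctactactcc
Nr4a1: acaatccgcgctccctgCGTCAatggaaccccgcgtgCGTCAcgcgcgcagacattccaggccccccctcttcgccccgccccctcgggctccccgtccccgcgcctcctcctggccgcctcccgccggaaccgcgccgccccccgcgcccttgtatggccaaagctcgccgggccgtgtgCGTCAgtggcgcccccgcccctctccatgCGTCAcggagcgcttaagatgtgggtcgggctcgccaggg
Dusp1 held 3 TGACG matches, of which 2 overlap in the full palindrome TGACGTCA, and Fos held 2 and Nr4a1 4. TGACG was found in 17.8% of the 27025 promoters and TGACGTCA in 1.61%. The window of Junb, looked up as well, held 1 TGACG match. These letters were not tested as bound sites.

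As a list, 39 immediate early genes passed of 40 listed, with 31 above 0 and 8 below and a median of 0.55 against -0.01 over all genes. At an unadjusted p under 0.05, 14 (35.9%) were above 0 and 2 (5.13%) below. Those below were Atf3 (-1.51) and Maff (-1.495), named after their values were seen. The median change was -0.46 from Wild-type to 5xFAD and 0.12 from Dp16 to 5xFAD-Dp16. The list's median was 0.703 in the males and 0.496 with the length trend removed, and ran from 0.254, without Wild-type replicate 4, to 0.877, without Wild-type replicate 2. The median of immediate early genes was also 0.30 without 5xFAD replicate 3 and 0.836 without Dp16 replicate 3. The labels do not give the time of day or the handling of the animals before the cortex was taken.

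**Figure D3:**
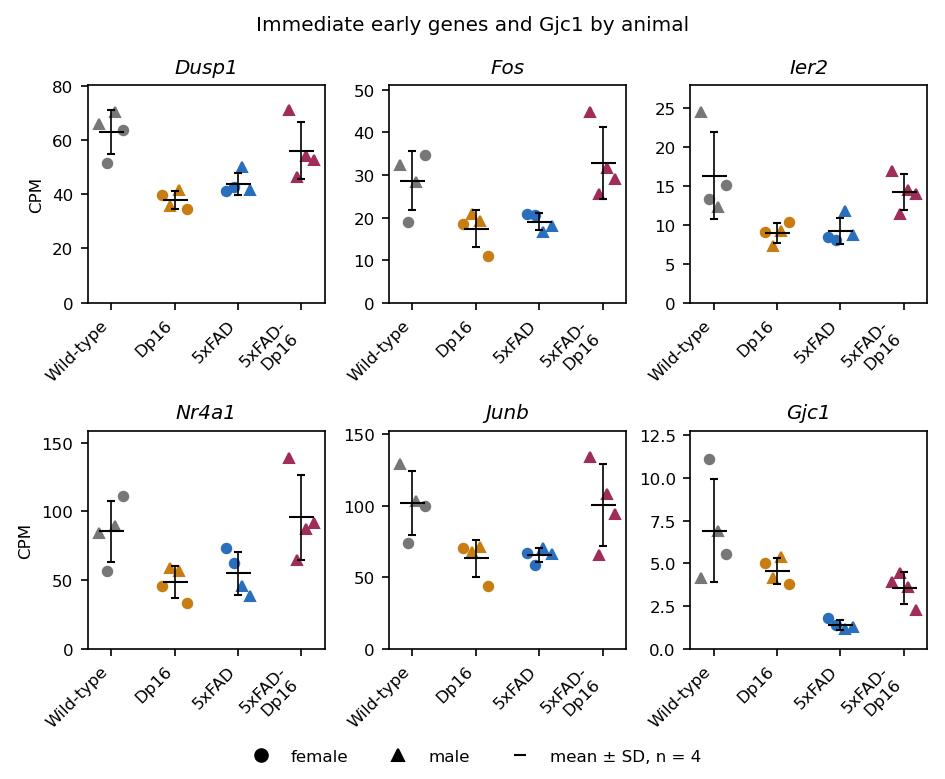
CPM of 5 immediate early genes and of Gjc1 in each animal of the 4 genotypes, with circles for females, triangles for males and bars for the mean ± SD of 4 animals. Dusp1, Fos, Ier2, Nr4a1 and Junb have lower means in Dp16 and in 5xFAD than in Wild-type and 5xFAD-Dp16, and Gjc1 is lowest in 5xFAD.

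Gjc1, the gap junction protein connexin 45, had the largest drop of the 3 genes that fell from Wild-type to 5xFAD. It stood at 4.11, 11.1, 6.90 and 5.57 CPM in Wild-type and at 5.04, 4.11, 5.37 and 3.76 in Dp16. In 5xFAD it stood at 1.78, 1.37, 1.12 and 1.24 CPM, and in 5xFAD-Dp16 at 3.92, 4.43, 3.60 and 2.26. All 5xFAD animals were below all others, while 2 of 4 5xFAD-Dp16 animals were within the range of Dp16. Gjc1 fell to 0.201 of its Wild-type level in 5xFAD (log2 -2.31, edgeR adjusted p = 0.0024) and stood at 0.855 of the Dp16 level in 5xFAD-Dp16 (edgeR adjusted p = 0.846). The interaction was 2.09 (SE 0.443, 95% interval 1.15 to 3.02), and it was 1.82 in the males. Gjc1 (ENSMUSG00000034520.14) lies on chromosome 11 from 102799579 to 102819700, minus strand.

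A further 4 genes with small p above 0 were lower in 5xFAD than in 5xFAD-Dp16 without overlap. They were picked by the interaction, which uses the same values, so the lack of overlap is a description. The cytoskeletal regulator Kank2 averaged 4.04 CPM in Wild-type, 3.51 in Dp16, 2.06 in 5xFAD and 5.90 in 5xFAD-Dp16, an interaction of 2.07 (SE 0.487). The lysosomal ubiquitin ligase Rnf152 averaged 5.42, 4.35, 3.46 and 8.52 CPM in the same order, an interaction of 1.82 (SE 0.427). Zfp804a, a zinc finger gene, and Nrg1, a ligand of ERBB receptors, gave 1.15 and 1.27. In the males the interaction was 2.13 for Kank2, 1.73 for Rnf152, 1.17 for Zfp804a and 0.818 for Nrg1.

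Below 0, 3 genes outside the lists above had their lowest mean in 5xFAD-Dp16. Fas, the death receptor, averaged 3.85 CPM in Wild-type, 7.96 in Dp16, 5.18 in 5xFAD and 2.86 in 5xFAD-Dp16, an interaction of -1.97 (SE 0.474). The Dp16 animals, at 7.09 to 8.73 CPM, were above the 5xFAD-Dp16 animals, at 1.98 to 3.66. Smim3, a small membrane protein, averaged 18.2, 30.9, 23 and 16.1 CPM in the same order and gave -1.39. Tfb1m, a methyltransferase of mitochondrial ribosomal RNA, averaged 7.33, 9.95, 11.8 and 6.68 CPM and gave -1.46. In the males Fas, Smim3 and Tfb1m gave -1.88, -1.54 and -1.32.

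Oligodendrocyte precursor genes were above 0 for 15 of 16 members, with a median of 0.56 and 4 (25%) above 0 at an unadjusted p under 0.05. The median of oligodendrocyte precursors was 0.788 in the males, and it was 0.27 without Wild-type replicate 4, 0.358 without 5xFAD replicate 3 and 0.37 without 5xFAD-Dp16 replicate 1. Nkx2-2, a homeobox factor of the lineage, averaged 7.78 CPM in Wild-type, 3.60 in Dp16, 6.60 in 5xFAD and 7.21 in 5xFAD-Dp16, an interaction of 1.49 (SE 0.428) and 2.24 in the males. Olig2, which lies in the duplicated segment, stood at 27.1, 23.1, 10.9 and 12.5 CPM in 5xFAD and at 45.6, 22.8, 26.7 and 24.1 in 5xFAD-Dp16. Its interaction was 1.00 (SE 0.374) and 1.27 in the males. The lowest Olig2 values were those of the 5xFAD males. Mature myelin genes had a median of 0.14 over 25 members, and 0.00644 to 0.209 with single libraries left out.

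Neuronal and synaptic genes had small positive medians with few members past the unadjusted threshold. Excitatory neuron and layer markers had a median of 0.33, with 24 of 27 above 0, and synaptic proteins one of 0.34, with 37 of 40 above 0. At an unadjusted p under 0.05, 4 of 27 (14.8%) and 4 of 40 (10%) were above 0. Single libraries moved these medians: without Wild-type replicate 4 they were 0.144 for excitatory neurons and layers and 0.162 for synaptic proteins, and without Dp16 replicate 3 they were 0.52 and 0.579. Without 5xFAD replicate 3 the excitatory median was 0.222. The number of synaptic members above 0 at an unadjusted p under 0.05 ran from 0 to 22 over the libraries left out. The complexin Cplx1 stood at 398, 395, 214 and 266 CPM in 5xFAD and at 547, 396, 441 and 460 in 5xFAD-Dp16, with Wild-type spread from 350 to 622. The groups overlapped, and the interaction of Cplx1 was 0.78 (SE 0.290) and 0.944 in the males. The calcium sensor Syt1 gave 0.73, 0.583 in the males and 0.368 without Wild-type replicate 4. Excitatory markers summed to 1922 to 3142 CPM in 5xFAD, 3269 to 4687 in 5xFAD-Dp16 and 2382 to 4477 in Wild-type. With the length trend removed the medians were 0.201 and 0.207. Inhibitory neuron markers had a median of -0.09, and -0.172 to -0.00348 with single libraries left out.

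Among vessel genes, 26 endothelial members had a median of 0.37, with 1 (3.85%) past the unadjusted threshold. The median of endothelium was 0.209 in the males. It was 0.106 without 5xFAD replicate 3, 0.129 without Wild-type replicate 4, 0.214 without Dp16 replicate 2, 0.243 without 5xFAD-Dp16 replicate 1 and 0.563 without Dp16 replicate 3. That member was Cldn5, the main tight junction claudin of the blood-brain barrier. It stood at 34.3, 36.6, 31.9 and 34.4 CPM in 5xFAD and at 54.7, 42.9, 47.2 and 38.5 in 5xFAD-Dp16, against 48.0 to 68.0 in Wild-type and 34.9 to 57.6 in Dp16. The 5xFAD animals were below 5xFAD-Dp16 and Wild-type without overlap. The interaction of Cldn5 was 0.79 (SE 0.243) and 1.09 in the males.

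The transgene promoter and the amyloid precursor machinery were compared in the same way. Thy1 stood at 1720, 1880, 1450 and 1510 CPM in 5xFAD and at 1790, 1700, 1620 and 1470 in 5xFAD-Dp16. The groups overlapped, and the interaction was 0.11 (SE 0.157, 95% interval -0.23 to 0.44) and 0.0497 to 0.177 with single libraries left out. The interval bounds a difference in Thy1 response but is no measure of transgene protein. Mouse App, carried in 3 copies with the duplication, stood at 918, 893, 604 and 933 CPM in 5xFAD, at 2070, 1630, 1720 and 1570 in 5xFAD-Dp16, at 841 to 1510 in Wild-type and at 1400 to 1890 in Dp16. App differed by 1.07 on the log2 scale between 5xFAD-Dp16 and 5xFAD and by 0.48 between Dp16 and Wild-type, an interaction of 0.58 (SE 0.261, 95% interval 0.03 to 1.13). The interaction of App was 0.57 in the males, 0.279 with the length trend removed and 0.349 without Wild-type replicate 4, and whether App counts include transgene reads was not tested. Of 22 genes of precursor processing, 17 were above 0, the median was 0.31, and 6 (27.3%) were above 0 and 1 (4.55%) below at an unadjusted p under 0.05. Ncstn, the nicastrin subunit of gamma-secretase, gave 0.86 (SE 0.296) and 1.1 in the males, and the beta-secretase Bace1, chosen after its values were seen, gave 0.42 and 0.335 in the males.

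Ribosomal protein genes had the most uniform direction of any list. All 74 that passed, of 76, were below 0, with a median of -0.62, and 32 (43.2%) had an unadjusted p under 0.05. Nuclear genes of oxidative phosphorylation were below 0 for 76 of 81, with a median of -0.52 and 7 (8.64%) below 0 at an unadjusted p under 0.05. The median of oxidative phosphorylation was -0.224 without 5xFAD replicate 3 and -0.309 without Wild-type replicate 4, and that of ribosomal proteins was -0.366 and -0.397. In the males they were -0.504 and -0.607. Rps20, a small ribosomal subunit protein, stood at 303, 351, 548 and 417 CPM in 5xFAD and at 218, 255, 267 and 276 in 5xFAD-Dp16, an interaction of -0.76 (SE 0.273). The list score ran from -0.111 to 0.710 in 5xFAD, from -0.579 to -0.232 in 5xFAD-Dp16 and from -0.571 to 0.391 in Wild-type, so Wild-type animals alone spanned most of that range. These genes are short, and the score was highest in 5xFAD replicate 3 and lowest in 5xFAD-Dp16 replicate 1, the libraries at the 2 ends of the correlation with gene length. With the length trend removed the medians were -0.302 for ribosomal proteins and -0.175 for oxidative phosphorylation. The number of ribosomal genes below 0 at an unadjusted p under 0.05 ran from 0 to 70 with single libraries left out, and that of oxidative phosphorylation from 0 to 54. The 13 genes of the mitochondrial genome had a median of -0.25, which turned to 0.181 with the length trend removed.

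**Figure D4:**
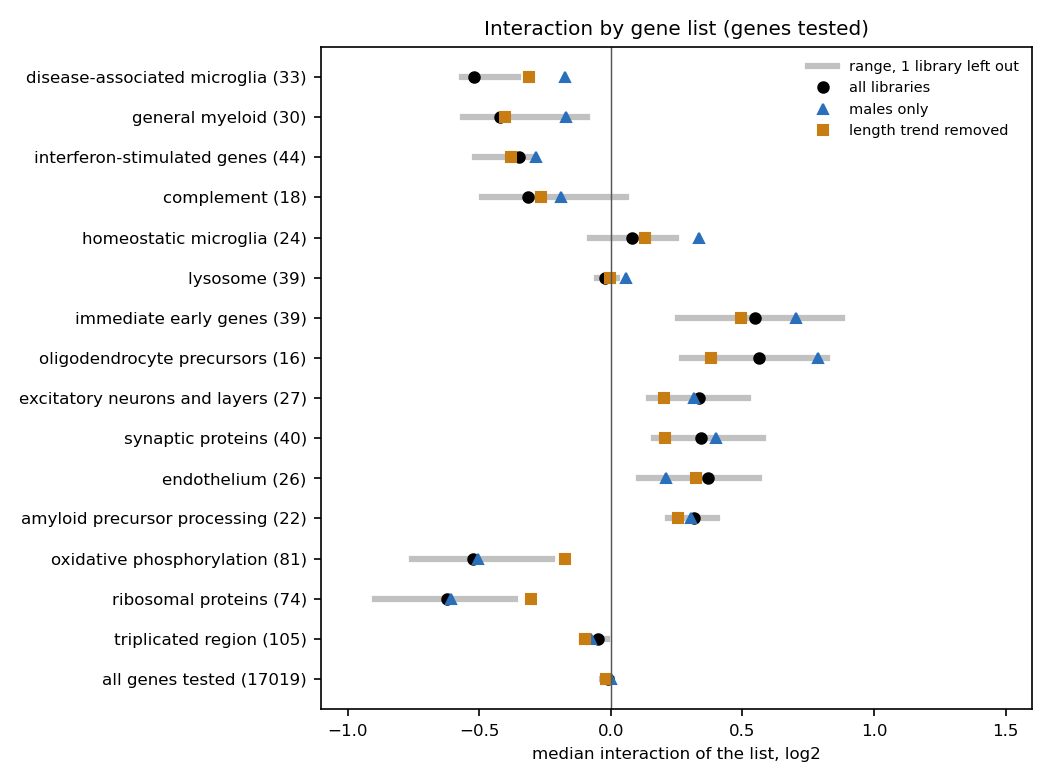
Median log2 interaction of 15 gene lists and of all genes tested, with the number of genes in parentheses. Black circles are all libraries, blue triangles males only, orange squares the fit with the length trend removed, and grey bars the range with 1 library left out. Plaque-associated microglia, ribosomal and oxidative phosphorylation genes lie below 0 and immediate early and precursor genes above it in each of these fits.

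The duplicated segment, chromosome 16 from 75540514 to 97962622 in GRCm38, had similar median changes with and without the transgenes. Of its 384 genes, 105 passed the filter. The median change was 0.55 from Wild-type to Dp16 (1.46-fold, 94 of 105 above 0) and 0.51 from 5xFAD to 5xFAD-Dp16 (1.42-fold, 89 of 105 above 0). The interaction was above 0 for 50 and below 0 for 55, with a median of -0.05, and at an unadjusted p under 0.05 there were 6 (5.71%) above and 12 (11.4%) below. Averaged over both backgrounds, 16 genes (0.094%) were called for the duplication, all raised, and 15 of them lie in the segment.

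Single genes of the segment departed in both directions. Dyrk1a, a kinase of the segment known for its dosage sensitivity, averaged 65.0 CPM in Wild-type, 99.6 in Dp16, 69.2 in 5xFAD and 116 in 5xFAD-Dp16, with an interaction of 0.11 (95% interval -0.23 to 0.45), 0.057 in the males and -0.00153 without Wild-type replicate 4. Morc3, a nuclear body ATPase, stood at 18.8 to 26.8 CPM in Wild-type, 36.9 to 41.6 in Dp16, 26.4 to 30.9 in 5xFAD and 34.3 to 36.9 in 5xFAD-Dp16, an interaction of -0.56 (SE 0.183) and -0.512 in the males. Its duplication effect was 0.81 without the transgenes and 0.25 with them. Samsn1, an adaptor of immune cells and the 1 segment gene among the 26 amyloid-raised genes, stood at 8.57, 8.86, 7.52 and 6.80 CPM in 5xFAD and at 3.92, 5.48, 5.43 and 5.17 in 5xFAD-Dp16. Among animals with the transgenes the level was thus lower with 3 copies than with 2, without overlap. The duplication effect of Samsn1 was 0.53 (SE 0.30) without the transgenes and -0.56 (SE 0.31) with them. Its interaction was -1.09 (SE 0.430) and -1.1 in the males. Adamts1, a secreted metalloprotease, stood at 3.95, 2.74, 1.25 and 1.63 CPM in 5xFAD and at 10.8, 6.54, 6.63 and 4.57 in 5xFAD-Dp16, with 4.13 to 9.62 in Wild-type, an interaction of 2.00 (SE 0.595) and 2.37 in the males.

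**Figure D5:**
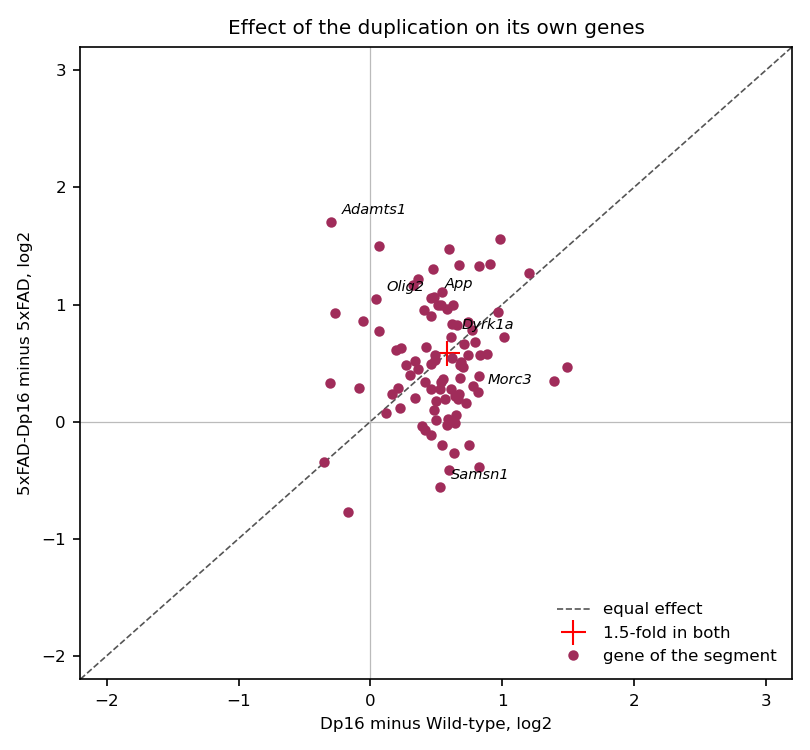
Effect of the duplication on 92 genes of the duplicated segment whose mean log2 CPM was 0 or more, without the transgenes (x axis, Dp16 minus Wild-type, log2) and with them (y axis, 5xFAD-Dp16 minus 5xFAD, log2). The dashed line marks equal effects and the red cross a fold equal to the copy ratio in both. Adamts1, Olig2 and App lie above the line, Samsn1 and Morc3 below it.

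Markers of cells or regions that dissection or blood could add were summed per animal. Perivascular macrophage markers summed to 33.2 to 36.7 CPM in Wild-type, 22.8 to 40.3 in Dp16, 27.5 to 35.7 in 5xFAD and 28.9 to 37.5 in 5xFAD-Dp16, with 11 of 12 markers past the filter, and the groups overlapped. Of 18 lymphocyte markers, 3 passed the filter. Blood markers summed to 469 to 940.5 CPM in Wild-type, 606.6 to 713.6 in Dp16, 529.4 to 1080 in 5xFAD and 464.2 to 731.1 in 5xFAD-Dp16. Of 9 blood markers that passed, of 10, 8 were below 0 in the interaction, with a median of -0.50 and with 2 (22.2%) below 0 and 1 (11.1%) above at an unadjusted p under 0.05. The median of blood was -0.113 in the males, where it turned to 0.279 with the length trend also removed, and -0.135, -0.831 and -0.324 without Wild-type replicate 4, 5xFAD-Dp16 replicate 2 and 5xFAD-Dp16 replicate 3. The blood median had the same sign as those of the microglial lists below 0, the summed blood levels overlapped between all groups, and the part of blood in the microglial results was not tested. Striatal markers summed to 1490 to 2416 CPM in 5xFAD and 1411 to 2183 in 5xFAD-Dp16. Hippocampal and thalamic markers summed to 128.5 to 165.6 CPM in 5xFAD and 191.8 to 248.5 in 5xFAD-Dp16, which did not overlap. In the interaction 14 of 15 hippocampal and thalamic markers were above 0. Their median, 0.57, was the highest of any list, and ran from 0.307 to 0.814 with single libraries left out. At an unadjusted p under 0.05, 1 (6.67%) was above 0 and 1 (6.67%) below. The striatal median was 0.10. The part of these regions in the neuronal values and in the other lists above 0 was likewise not tested.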

How the data were processed

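Gene counts and RPKM values of 16 cortex libraries, 4 per genotype, were deposited by the authors, in 1 table each. The submitters' processing notes name bcl2fastq, FastQC 0.11.5, HISAT2 2.1.0, SAMtools 1.5, HTSeq 0.6.1 and the build GRCm38. The labels describe a strand-specific kit; the strand setting of the counting is not given in the sources used here, so overlapping and antisense genes may share reads. The deposited RPKM values were used for gene length and as a check on the counts, and 100% of them followed from counts and length within 0.1%. Groups came from the labels. Coordinates were joined by gene ID from the reference annotation of GRCm38 (55144 IDs matched, 241 did not).

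Genes were filtered with edgeR's filterByExpr, leaving 17019 of 55385. In R 4.3.3, edgeR 4.0.16 (TMM scaling, quasi-likelihood test, Benjamini-Hochberg adjustment, threshold 0.05) was fitted to all 16 libraries with the 4 genotypes and sex as terms. Residual degrees of freedom were 11 and the common biological coefficient of variation was 0.266. Alternatives used limma 3.58.1, DESeq2 1.42.0, other filters and scalings, males only, a replicate block, removal of a length trend (lowess span 0.3) and each library left out. The procedure was tested on simulated data. Totals of 12483286 to 20385010 counts per library set the precision.

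Named genes were those called in the interaction, up to 10 per direction with the smallest p among genes whose mean log2 CPM was 0 or more, up to 4 per list, the 15 and 10 with the smallest p in the averaged amyloid and duplication effects, and a panel of 16 genes. The members, gene lists and motifs were chosen with earlier results of these data known, so no list is independent support for what it shows. Promoter sequences came from RefSeq (GRCm38.p6), with entries for 9 of 14 genes looked up.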

Additional observations from a re-analysis of the deposited data

Results flagged for a closer look

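In 11 of 256 groups of 4 animals looked at, 1 animal stood apart from the other 3 by more than Dixon's 95% criterion, where chance at 1 in 20 gives 12.8. Among the microglial genes, Trem2 stood at 43 CPM in 5xFAD-Dp16 replicate 2 (35.8 to 36.3 in the others), C1qa at 150 in the same animal (135 to 136), and Tyrobp at 77.3 in 5xFAD replicate 4 (137 to 148). The score of disease-associated microglia was 0.209 in Dp16 replicate 2 and 0.311 to 0.324 in the others. Among the immediate early genes, Dusp1 stood at 49.9 CPM and Ier2 at 11.7 in 5xFAD replicate 3 (41.2 to 42.5 and 8.06 to 8.66), and Junb at 43.7 in Dp16 replicate 4 (67.8 to 70.8). App stood at 604 CPM in 5xFAD replicate 3 (893 to 933), and Ncstn at 59.1 and Olig2 at 45.6 in 5xFAD-Dp16 replicate 1 (39.8 to 42.6 and 22.8 to 26.7). Zfp804a stood at 9.83 CPM in 5xFAD replicate 2 (6.2 to 6.65).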

How the results depend on the processing

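The number of genes called in the interaction was 0, and it was 21 by DESeq2, 346 with no filter on low counts (of 29145 genes) and 0 to 1 with single libraries left out, the 1 being Clec7a without Wild-type replicate 1. The 32 genes of the averaged amyloid response became 154 by DESeq2, 105 without the filter, 16 with a sex effect differing with the transgenes, 11 in males only, 19 in males with the length trend removed, and 13 to 49 with single libraries left out. The highest of these was without Wild-type replicate 4, and the count moved by over 1.5 times also without Wild-type replicate 3, any of Dp16 replicates 1 to 3, 5xFAD replicates 1 and 2, and each 5xFAD-Dp16 animal. The 16 genes of the averaged duplication effect became 131 by DESeq2, 1097 without the filter, 2543 in males only, 35 with the length trend removed, 1432 with that in males only, 57 with that and a sex effect differing with the transgenes, and 10 to 43 with single libraries left out. The replicate block gave 0, 17 and 9 calls in the interaction, amyloid and duplication comparisons. Of 24 same-number pairs, 5 correlated above 0.1 (-0.365 to 0.316, mean -0.0244 against 0.00828 for other numbers). Pairing by number was not visible in these correlations, which cannot tell whether animals of the same number shared a litter or a batch.

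Of 57 genes followed through 30 alternatives, 53 kept the direction of their interaction in all of them. Cst7 turned to 0.771 in males only and 1.18 in males with the length trend removed. With the length trend removed, C1qa turned to 0.0929 in males only and 0.184 with the differing sex effect, and C1qc to 0.0145 and 0.108. Dyrk1a turned to -0.144 with the length trend removed, to -0.18 with that in males only, to -0.243 with that and the differing sex effect, and to -0.00153 without Wild-type replicate 4 (up to 0.196, without Wild-type replicate 2, among single libraries left out). The cause was not tested. The fits without both Wild-type replicate 2 and 5xFAD replicate 3, and with length and the differing sex effect together, and the list medians under each setting, were added after seeing the data. The all-male 5xFAD-Dp16 group and 4 animals per genotype limit the precision of each interaction.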
